A study of Mus musculus with 8 samples.

Results

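Genes of the mural cells of the vessel wall, the pericytes and smooth muscle cells, were examined in hearts of mice with and without diet-induced kidney disease. The 9 members are the rows of the deposited count table whose symbol is Acta2, Tagln, Myh11, Cnn1, Vtn, Pdgfrb, Rgs5, Cspg4 or Notch3, out of 27304 genes in all, and each symbol matched 1 row. All animals were male 129/Sv mice, an inbred strain. The control group (4 libraries, titled Sham) ate a standard diet, and the adenine group (4 libraries) ate a diet with 0.15% adenine, both for 13 weeks. The sources used here give no age for the mice. Dietary adenine forms crystals in the renal tubules, and per the labels' protocols the adenine mice had raised plasma creatinine and urea, fibrosis of the kidney and injured tubules. RNA came from snap-frozen heart, and no source used here names the part of the heart. Whether each library is a separate mouse is not stated, so the spread between replicates, on which the p-values rest, may be technical.

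Pericytes lie on capillaries inside the basement membrane, and smooth muscle cells form the contractile layer of arterioles, arteries and larger veins. Smooth muscle cells contract through a dedicated set of actin, myosin and calponin-family proteins, whose genes are driven by serum response factor (SRF) and its partner myocardin at DNA elements called CArG boxes. Pericytes are recruited by endothelial PDGF-B, which acts on the receptor PDGFRB, and endothelial ligands keep mural cells mature through NOTCH3. The heart has a dense capillary bed and, with it, many pericytes.

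The promoters of 3 members are shown because the results below turn on them: Acta2 and Cnn1, the pair of contractile genes that went together most closely across libraries, and Vtn, the member with the lowest p-value. Each window runs from 250 bases before to 50 bases after the transcription start in RefSeq on GRCm38.p6, 5′ to 3′ on the strand of the gene. Acta2 is from chr19:34255324-34255623 (minus strand), Cnn1 from chr9:22099003-22099302 and Vtn from chr11:78498870-78499169 (both plus strand). Capitals mark CArG boxes with at most 1 core base other than A or T, and the core motif of RBPJ, the DNA-binding partner of Notch receptors.
Acta2: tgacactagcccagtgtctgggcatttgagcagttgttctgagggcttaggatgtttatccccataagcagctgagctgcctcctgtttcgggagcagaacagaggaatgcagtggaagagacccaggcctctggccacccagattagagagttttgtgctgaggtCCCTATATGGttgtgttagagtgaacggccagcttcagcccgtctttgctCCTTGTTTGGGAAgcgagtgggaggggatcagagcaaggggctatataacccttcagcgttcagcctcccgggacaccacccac
Cnn1: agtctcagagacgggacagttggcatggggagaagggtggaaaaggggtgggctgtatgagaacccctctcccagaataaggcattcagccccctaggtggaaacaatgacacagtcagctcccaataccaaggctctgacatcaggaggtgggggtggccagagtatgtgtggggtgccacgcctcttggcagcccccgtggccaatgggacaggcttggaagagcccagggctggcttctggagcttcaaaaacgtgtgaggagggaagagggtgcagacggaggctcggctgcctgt
Vtn: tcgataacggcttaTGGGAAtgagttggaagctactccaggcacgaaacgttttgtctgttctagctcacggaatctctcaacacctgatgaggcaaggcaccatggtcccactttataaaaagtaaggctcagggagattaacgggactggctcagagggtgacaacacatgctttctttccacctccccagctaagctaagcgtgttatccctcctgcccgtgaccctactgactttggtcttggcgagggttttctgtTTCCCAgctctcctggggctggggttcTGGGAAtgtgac

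A CArG box is CC and GG around a core of 6 bases that are A or T, and it reads alike on both strands. With a core of A and T alone, 0 of the 6 members with an entry in the table (Acta2, Cnn1, Vtn, Rgs5, Cspg4 and Notch3) had a match, against 1.63% of 32851 promoters of the same length. With 1 core base free, Acta2 had 2 boxes, CCCTATATGG from -84 to -75 and CCTTGTTTGG from -34 to -25, counted from the start, and the other 5 had none. Of all promoters, 9.98% held such a box and 0.822% held 2 or more. The RBPJ core TGGGAA, searched on both strands, was found once in Acta2, from -27 to -22, where it overlaps the second box. Vtn had 3 matches, and 25.6% of all promoters had at least 1. A match is a string of letters and not a shown binding site. Only these windows were searched, so the lack of a match does not speak for sites elsewhere in or near a gene. Tagln, Myh11 and Pdgfrb had no entry.

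Values are given as CPM, read counts scaled to library size with TMM factors. Library totals ran from 15626620 reads in adenine 2 to 33886385 in control 2, so that 1 read was worth 0.0318 to 0.0611 CPM. All 9 members passed the low-count filter, as did 20093 genes in all. Counts of replicates within a group differed beyond sampling noise (chi-square of 20 or more per gene). Some libraries stood apart before any mural gene was considered. Atrial cardiomyocyte markers summed to 5170 CPM in control 2 and 953 to 1130 CPM in the other controls, and markers of macrophages and of myofibroblasts summed to 2640 and 2380 CPM in adenine 3, where the remaining adenine hearts had 304 to 462 and 110 to 332 CPM. Ventricular cardiomyocyte markers, counted to check the label heart, summed to 29600 CPM in adenine 3, against 44300 to 57200 CPM elsewhere.

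Across the 9 members the contractile genes Acta2, Myh11 and Cnn1 and the pericyte gene Vtn had lower mean levels in the adenine hearts, at 0.396 to 0.581 of the control mean. Pdgfrb, Cspg4 and Notch3 had mean levels of 0.919 to 1.05 of the control mean, and Rgs5 and Tagln lay between, at 0.801 and 0.854. None of the 9 passed the test of the diet over all genes (edgeR quasi-likelihood test, adjusted p under 0.05), as was also so with DESeq2 and limma-voom. Of all genes tested, 0.0398% passed, 8 of them higher and 0 lower. At an unadjusted p under 0.05, 4 of 9 members had lower and 0 had higher levels, where 6.63% of all genes were lower and 10.9% higher. By sign alone, 7 of 9 members had a negative log2 fold change, against 45.8% of all genes, and 6 of 9 had one with upper-quartile factors, where Pdgfrb was at 0.01. In 0 of 9 members were the libraries of the diets separated, against 3.84% of all genes in the lower and 3.45% in the higher direction. The members were chosen with such results known, so their count is a description. In bulk tissue, fewer mural cells and less RNA per mural cell cannot be told apart.

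**Figure D1:**
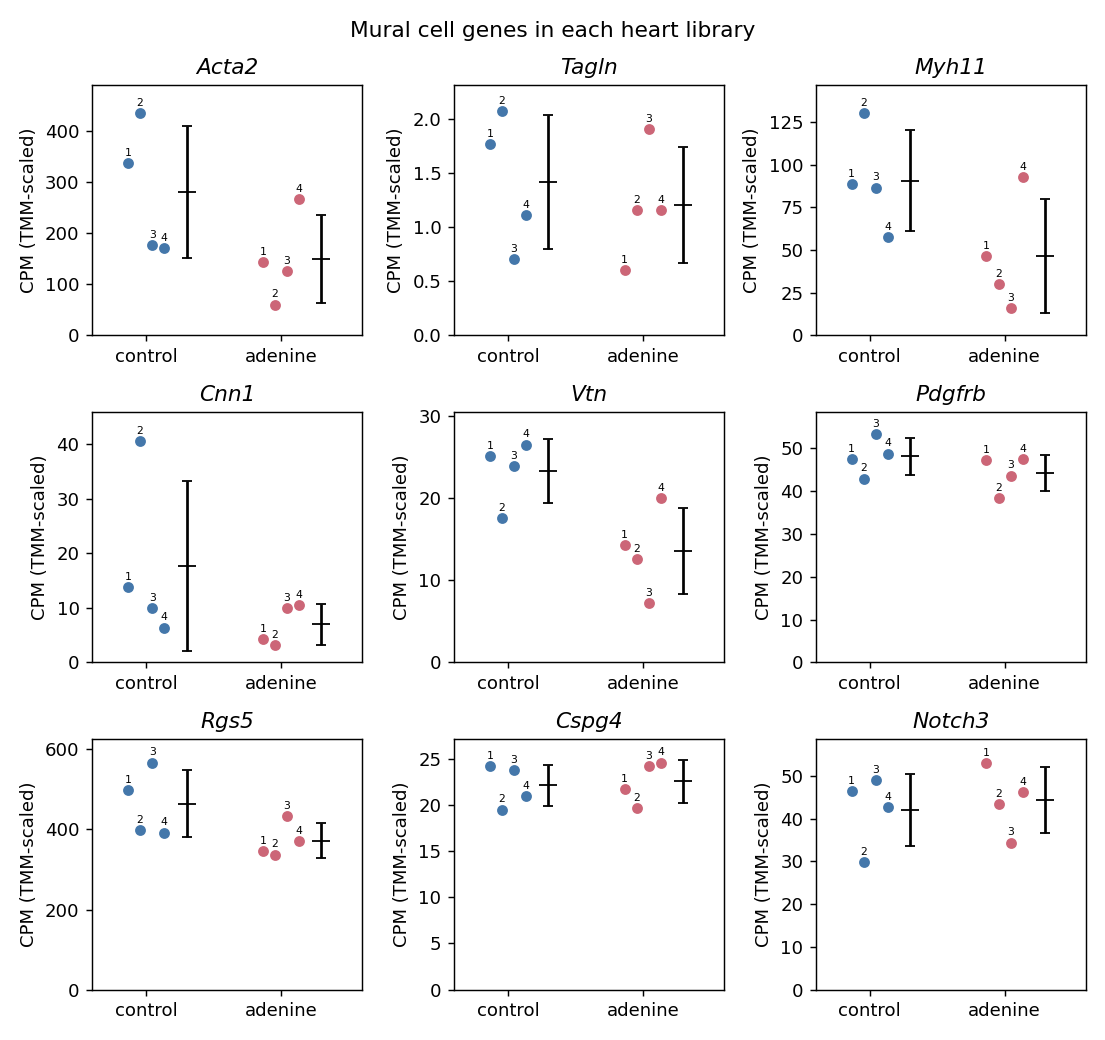
Level of each of the 9 mural cell genes in CPM (vertical axis, linear, TMM-scaled) in the 4 control and 4 adenine libraries, with replicate numbers beside the points and mean ± SD as black bars. The diets overlap in every panel, the contractile genes spread widely within each diet, and Pdgfrb and Cspg4 stay within a narrow band.

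Acta2 (ENSMUSG00000035783, chromosome 19 from 34241090 to 34255590 on GRCm38) encodes the smooth muscle alpha-actin of the contractile filament, which activated fibroblasts also make. It was at 337, 435, 177 and 170 CPM in control 1 to control 4 and at 143, 60.2, 126 and 266 CPM in adenine 1 to adenine 4. Adenine 4 lay above control 3 and control 4, and the other adenine libraries lay below all controls. The mean was 280 ± 129 CPM in the controls and 149 ± 85.9 CPM in the adenine hearts (SD, n = 4 each), a log2 fold change (adenine minus control) of -0.91 (SE 0.40, 95% interval -1.77 to -0.05, edgeR adjusted p = 0.278).

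Myh11 (ENSMUSG00000018830, chromosome 16 from 14194535 to 14291372 on GRCm38), the smooth muscle myosin heavy chain and the most specific of the contractile members, had 88.5, 130, 86.6 and 57.7 CPM in the controls and 46.5, 30.0, 16.0 and 92.7 CPM in the adenine libraries, in replicate order. Adenine 4 was again at the level of the controls, above 3 of them, and the other 3 adenine libraries were below every control. The group means were 90.7 ± 29.7 and 46.3 ± 33.4 CPM, with a log2 fold change of -0.97 (SE 0.41, edgeR adjusted p = 0.274). Without adenine 4 the log2 fold change was -1.55 (edgeR adjusted p = 0.122). It was -0.69 without adenine 3 (adjusted p = 0.16) and -0.76 without control 2 (adjusted p = 0.555).

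Cnn1 (ENSMUSG00000001349, chromosome 9 from 22099216 to 22109630 on GRCm38) encodes calponin 1, which binds actin and restrains myosin. It had 13.8, 40.5, 10 and 6.38 CPM in control 1 to control 4 and 4.32, 3.18, 9.97 and 10.5 CPM in adenine 1 to adenine 4. Control 2 stood at 40.5 CPM against 13.8 CPM in the next library, and the other 3 controls and the adenine libraries overlapped. The log2 fold change of -1.32 (SE 0.51, adjusted p = 0.264) had the largest size of the 9 members and rested on that library, since it was -0.51 (adjusted p = 0.632) without control 2.

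Tagln, which encodes transgelin, an actin-binding protein of the calponin family, had only 15 to 61 reads in any library. It was at 1.77, 2.07, 0.708 and 1.11 CPM in the controls and at 0.600, 1.16, 1.91 and 1.16 CPM in the adenine libraries. Its groups overlapped fully, with a log2 fold change of -0.22 (SE 0.44, 95% interval -1.18 to 0.73, adjusted p = 0.772). On GRCm38, Tagln (ENSMUSG00000032085) lies on the minus strand of chromosome 9 from 45929619 to 45936058. Of its 1988 exon bases, 67.9% are shared with exons on the opposite strand, 1241 with the gene model Gm48529 and 108 with Pcsk7. Gm48529 has no row in the deposited counts. The sources used here do not state whether the counting used strand or dropped reads shared by 2 genes, and the part of the overlap in the low count was not tested. The value of Tagln is therefore uncertain as a level of transgelin RNA.

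**Figure D2:**
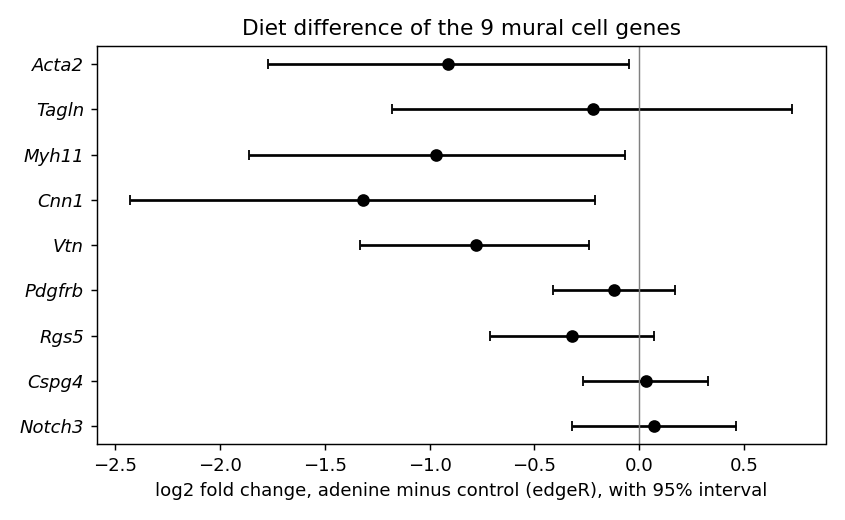
Log2 fold change of each member (horizontal axis, adenine minus control, edgeR) with its 95% interval, 4 libraries per diet. The intervals of Acta2, Myh11, Cnn1 and Vtn lie below 0 before adjustment over all genes, and those of Tagln, Pdgfrb, Rgs5, Cspg4 and Notch3 include 0.

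Vtn (ENSMUSG00000017344, chromosome 11 from 78499091 to 78502324 on GRCm38) encodes vitronectin, an adhesion protein of plasma and matrix that pericytes are known to express. It had 25.1, 17.6, 23.9 and 26.5 CPM in the controls and 14.3, 12.6, 7.23 and 20 CPM in the adenine libraries. Adenine 4 alone lay above a control, control 2. The means of 23.3 ± 3.94 and 13.5 ± 5.28 CPM gave a log2 fold change of -0.78 (SE 0.25, 95% interval -1.33 to -0.24), with an adjusted p of 0.231 in edgeR and 0.0619 in DESeq2. Its unadjusted p, 0.00819, was the lowest of the 9.

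Rgs5 (ENSMUSG00000026678, chromosome 1 from 169655501 to 169695813 on GRCm38), a brake on G protein signalling and a classical pericyte gene, had 498, 399, 567 and 392 CPM in the controls and 346, 337, 434 and 371 CPM in the adenine libraries. Adenine 3 lay above control 2 and control 4, and the other adenine libraries below all controls. The log2 fold change was -0.32 (SE 0.18, 95% interval -0.71 to 0.07, adjusted p = 0.339).

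Pdgfrb (ENSMUSG00000024620, chromosome 18 from 61045150 to 61085061 on GRCm38), the PDGF-B receptor shared by pericytes, smooth muscle cells and some fibroblasts, had 47.3, 42.8, 53.2 and 48.6 CPM in the controls and 47.1, 38.3, 43.5 and 47.4 CPM in the adenine libraries. Its log2 fold change was -0.12 (95% interval -0.41 to 0.17, adjusted p = 0.593). Cspg4 (ENSMUSG00000032911, chromosome 9 from 56865033 to 56899870 on GRCm38) encodes NG2, a proteoglycan on the mural cell surface, and had 24.2, 19.5, 23.8 and 21 CPM in the controls and 21.7, 19.7, 24.2 and 24.6 CPM in the adenine libraries. The diets overlapped for both genes. For Cspg4 they covered nearly the same range, and for Pdgfrb adenine 2 lay below all controls and control 3 and control 4 above all adenine libraries. Cspg4 had a log2 fold change of 0.03 (95% interval -0.27 to 0.33, adjusted p = 0.911).

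Notch3 (ENSMUSG00000038146, chromosome 17 from 32120820 to 32166852 on GRCm38), the Notch receptor of mural cells, had 46.5, 29.9, 49.0 and 42.8 CPM in the controls and 53.1, 43.5, 34.4 and 46.2 CPM in the adenine libraries. Control 2, the library with the highest Acta2, Myh11 and Cnn1, had the lowest Notch3. The log2 fold change was 0.07 (SE 0.18, 95% interval -0.32 to 0.46, adjusted p = 0.818). Of its 8089 exon bases, 488 are shared with the opposite-strand gene model Gm17276, which has no row in the deposited counts.

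Levels of different genes were compared per kilobase of exon. In the controls, Acta2 with 127 ± 58.8 and Rgs5 with 102 ± 18.5 CPM per kb stood far above the rest and overlapped with each other. Myh11 (11.9 ± 3.91), Vtn (11.5 ± 1.94), Pdgfrb (8.75 ± 0.785), Cnn1 (6.46 ± 5.67) and Notch3 (5.20 ± 1.05 CPM per kb) followed, and each overlapped with its neighbour in that order. Cspg4, at 1.85 ± 0.188 CPM per kb, lay below all of these, and Tagln, at 0.711 ± 0.311, below Cspg4 in every control. In the adenine hearts the order began with Rgs5 (81.8 ± 9.71) and Acta2 (67.8 ± 39.1 CPM per kb), which again overlapped. Pdgfrb (8.04 ± 0.774), Vtn (6.67 ± 2.60), Myh11 (6.09 ± 4.39) and Notch3 (5.47 ± 0.955 CPM per kb) came next and overlapped as neighbours. Cnn1, at 2.56 ± 1.39 CPM per kb, lay below Notch3 in all 4 adenine libraries and overlapped with Cspg4 at 1.89 ± 0.194. If all reads of Tagln came from its unshared exon bases, which is not known, its mean over the 8 libraries would be 2.05 CPM per kb.

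The 9 members together took 0.0963 ± 0.0103% of all reads in the controls and 0.0716 ± 0.0165% in the adenine hearts (SD, n = 4). The range was 0.0831 to 0.108% in the controls and 0.0571 to 0.0941% in the adenine libraries, so that adenine 4, the highest of its group, fell among the controls. Adenine 1 and adenine 2 had 41 and 41.9% of their reads in mitochondrially encoded genes, and the other 6 libraries 31 to 35.6%. Over reads outside those genes every share is larger, at 0.128 to 0.157% in the controls and 0.0981 to 0.145% in the adenine libraries. The difference between the diets was -0.0314 percentage points there and -0.0247 over all reads. With unlike totals, these 2 differences cannot be compared in size. The 4 contractile members took 0.0373 ± 0.0134% and 0.0209 ± 0.0130%, and the 5 pericyte and receptor members 0.0590 ± 0.0110% and 0.0507 ± 0.00617%.

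Ratios of reads within a library do not depend on how libraries are scaled. Per read of Pdgfrb, Myh11 had 1.93 ± 0.790 reads in the controls and 1.02 ± 0.674 in the adenine hearts, a difference of -1.08 on the log2 scale (exact two-sided permutation p = 0.143, adjusted p = 0.25 over 7 ratios). The corresponding values for Vtn were 0.485 ± 0.0646 and 0.305 ± 0.106 reads, with a log2 difference of -0.74 (exact permutation p = 0.0571, adjusted p = 0.2). Its highest adenine ratio, 0.423, was above the lowest control ratio, 0.412. For Cspg4 the ratio to Pdgfrb was 0.462 ± 0.0347 and 0.513 ± 0.0396, in the opposite direction (exact permutation p = 0.0571, adjusted p = 0.2). None of the 7 ratios passed. With 70 assignments the smallest p is 0.0286, so that 1 ratio alone could not pass after adjustment over 7. The adjusted test therefore decides little.

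Acta2 and Myh11, which smooth muscle cells express together, parted in 1 library. Per read of Myh11 there were 3.81, 3.35, 2.05 and 2.94 reads of Acta2 in the controls and 3.08, 2.01, 7.86 and 2.87 in the adenine libraries. Adenine 3 had the lowest Myh11 of all libraries, and its Acta2 was in the range of the other adenine libraries. In that library the 8 myofibroblast markers, which include Postn, Cthrc1 and Fn1 and stand for activated fibroblasts, summed to 2380 CPM, and in the other 7 libraries to 110 to 343 CPM. The part of these cells in its Acta2 level was not tested. Of the 8 markers 7 had a positive log2 fold change and 0 passed, and none had a mean of 0 in either diet. The diets had mean ratios of 3.04 ± 0.749 and 3.96 ± 2.65 (exact two-sided permutation p = 0.8).

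**Figure D3:**
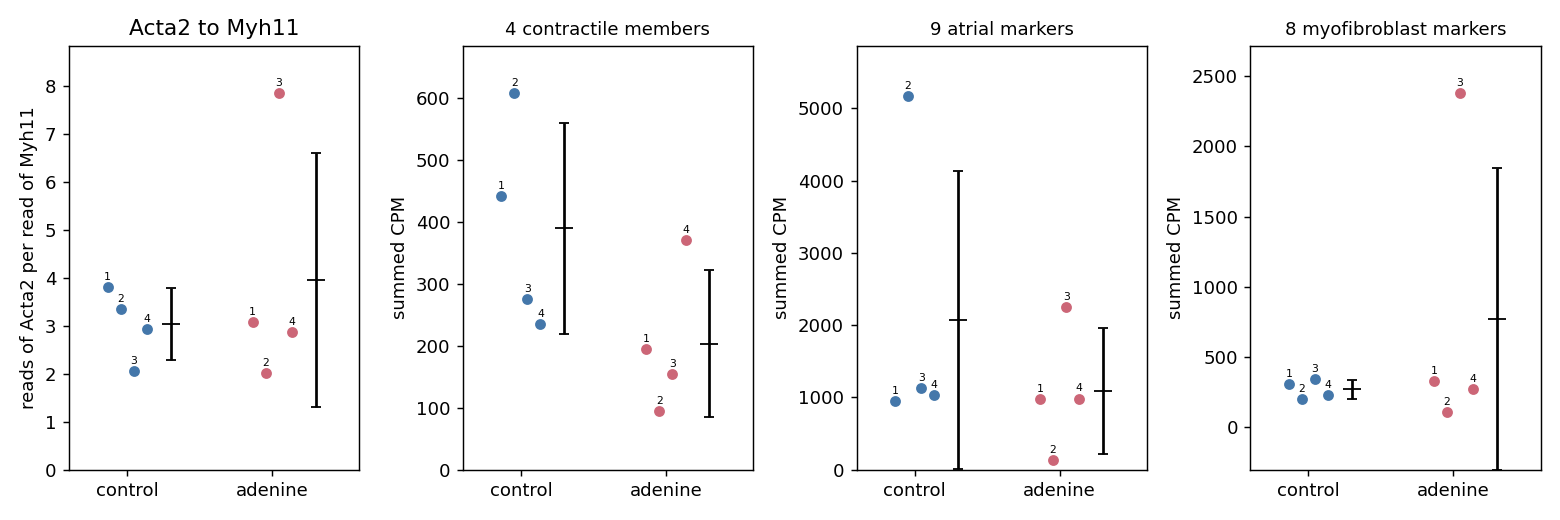
Reads of Acta2 per read of Myh11, and the summed CPM of the 4 contractile members, 9 atrial cardiomyocyte markers and 8 myofibroblast markers, per library (points with replicate numbers, mean ± SD as black bars, which reach below 0 where the SD exceeds the mean). Adenine 3 stands apart in the ratio (7.86) and in the myofibroblast markers (2380 CPM), and control 2 in the atrial markers (5170 CPM). Control 2 is also the highest in the contractile members (607 CPM), with control 1 next at 441 CPM.

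The sum of the contractile members, most of it Acta2, was highest and lowest in the same libraries as the sum of the atrial markers. The 4 contractile members summed to 441, 607, 275 and 235 CPM in the controls and to 195, 94.5, 154 and 370 CPM in the adenine libraries. Control 2 was highest in this sum and in the 9 atrial markers (5170 CPM), and adenine 2 was lowest in both (94.5 and 135 CPM). Between these ends the order differed, since adenine 3 had the second-highest atrial sum, 2250 CPM, with a low contractile sum. The markers do not weigh alike in such a sum. Nppa, the only atrial marker with a positive log2 fold change (0.16), reached 1680 CPM in the adenine group, where Myl4 reached 231 and Myl7 183 CPM. Nppa, Myl4 and Myl7 were named after their values were seen. Of the atrial markers 8 of 9 had a negative log2 fold change and 0 passed, with a median of -1.87. Their part in the contractile values was not tested. Without control 2 and adenine 3 together, a choice made after seeing the data, the log2 fold changes were -0.57 for Acta2, -0.50 for Myh11, -0.76 for Cnn1 and -0.73 for Vtn, whose adjusted p was 0.0534 in edgeR.

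Among themselves, the members formed no single block over the 8 libraries. Pearson's r of log2 CPM, given as a description over libraries that share scaling and diet, was 0.87 for Acta2 and Cnn1 and 0.79 for Acta2 and Myh11. With the mean of each diet removed these were 0.81 and 0.67. Myh11 and Cnn1 had 0.59, and 0.37 with the means of the diets removed. Tagln was not tied to Myh11 (-0.02). Within the 5 pericyte and receptor members all 10 pairs were positive, at 0.04 to 0.63, with 0.63 for Pdgfrb and Rgs5. With the means of the diets removed, Vtn and Rgs5 had -0.23, and Pdgfrb and Rgs5 0.49. Of the pairs between the 2 groups of members, Vtn and Myh11 had the highest value, 0.82, and Notch3 and Tagln the lowest, -0.81. Notch3 and Cnn1 had -0.65, while Notch3 had -0.27 with Acta2 and 0.07 with Myh11. The values of Tagln rest on 15 to 61 reads per library, whose source is uncertain as said above. Among the pericyte and receptor members the highest value of Vtn was 0.61, with Pdgfrb. With the means of the diets removed this order turned, to 0.67 for Vtn and Myh11 and 0.73 for Vtn and Notch3. The differences between these values were not tested.

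**Figure D4:**
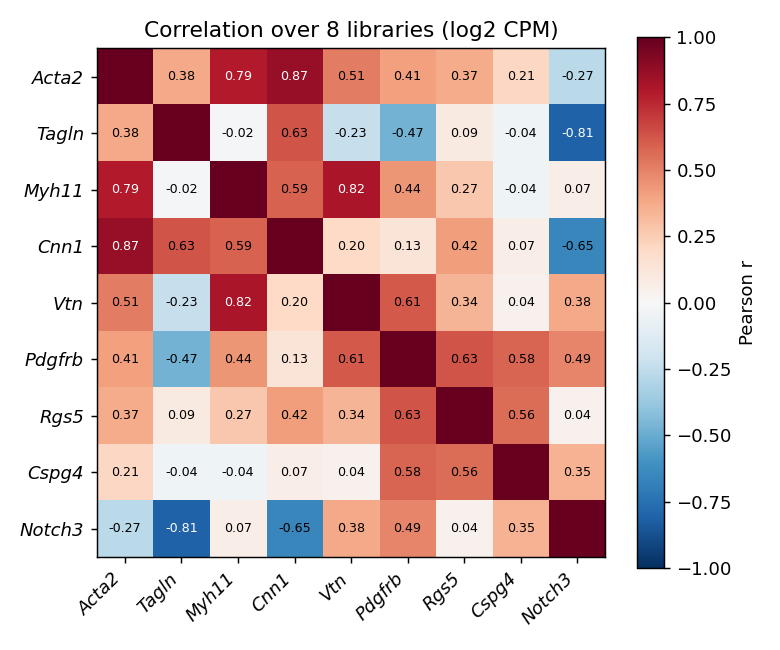
Pearson's r of log2 CPM between each pair of members over the 8 libraries (colour scale from -1 to 1, values printed in the cells). The means of the diets are not removed. Acta2, Myh11 and Cnn1 are joined by positive values of 0.59 to 0.87, and Vtn goes with Myh11 (0.82). Notch3 is negative against Tagln (-0.81), whose counts are low, and against Cnn1 (-0.65) and Acta2 (-0.27), with 0.07 against Myh11.

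The genes with the pattern most like Myh11 were looked for among 10660 other genes that averaged 5 CPM or more. Mylk, the myosin light chain kinase that switches on smooth muscle contraction, ranked 2 with r = 0.992 over 8 libraries. The other 4 of the first 5 encode mitochondrial proteins: Mrps27 (0.995), Afg3l1 (0.985), Iba57 (0.978) and Clpb (0.977). With the means of the diets removed, these 5 kept values of 0.963 to 0.992. For Rgs5 the 5 highest were Dgkd (0.943), Map4k4 (0.935), Rapgef5 (0.934), Tspan12 (0.932) and Kctd12b (0.927). Such maxima over many genes and 8 libraries are high by selection.

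Other genes of smooth muscle contraction, listed apart from the members, were mostly lower in the adenine hearts by their fitted values. All 20 were tested, 19 had a negative log2 fold change, and the median was -0.46, against 0.05 over all genes tested and -0.94 over the 4 contractile members. In edgeR 0 of them passed, while 11 were lower at an unadjusted p under 0.05, against 6.63% of all genes. For 3 of them all adenine libraries lay below all controls, against 3.84% of all genes. Ppp1r14a, which encodes CPI-17, an inhibitor of myosin phosphatase, was at 14.5 ± 3.98 CPM in the controls and 7.38 ± 2.38 CPM in the adenine hearts, with no overlap (log2 fold change -0.97, SE 0.25, adjusted p = 0.183). Itga8, the integrin alpha-8 chain of smooth muscle and mesangial cells, had 14.1 ± 8.20 and 5.34 ± 2.32 CPM, with a log2 fold change of -1.41 (SE 0.39, adjusted p = 0.213). DESeq2, which called 0.797% of the genes it tested lower, called Itga8 (adjusted p = 0.0103). Its highest value, 25.6 CPM, was in control 2, and the log2 fold change was -0.77 (edgeR adjusted p = 0.0945) without control 2 and adenine 3.

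Other pericyte genes gave a smaller median, -0.30, over 15 members. Of these 12 were negative, 0 passed, and 4 were lower at an unadjusted p under 0.05, against 6.63% of all genes. For 3 of them all adenine libraries lay below all controls, against 3.84% of all genes. Steap4, a metalloreductase expressed in pericytes, had 44.9, 40.2, 37.4 and 35.1 CPM in the controls and 24.1, 20, 20.6 and 30.7 CPM in the adenine libraries. All controls lay above all adenine libraries, with a log2 fold change of -0.72 (SE 0.16) and an adjusted p of 0.141 in edgeR and 0.024 in DESeq2. Gucy1a1 encodes a subunit of soluble guanylate cyclase, the nitric oxide receptor of mural cells, and had a log2 fold change of -0.64 (SE 0.19, adjusted p = 0.222). The channel subunit genes Kcnj8 and Abcc9 of this list had -0.34 and -0.07, nearer to 0 than Steap4 and Gucy1a1. They were named after their values were seen, and the part of pericytes in their levels was not tested.

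**Figure D5:**
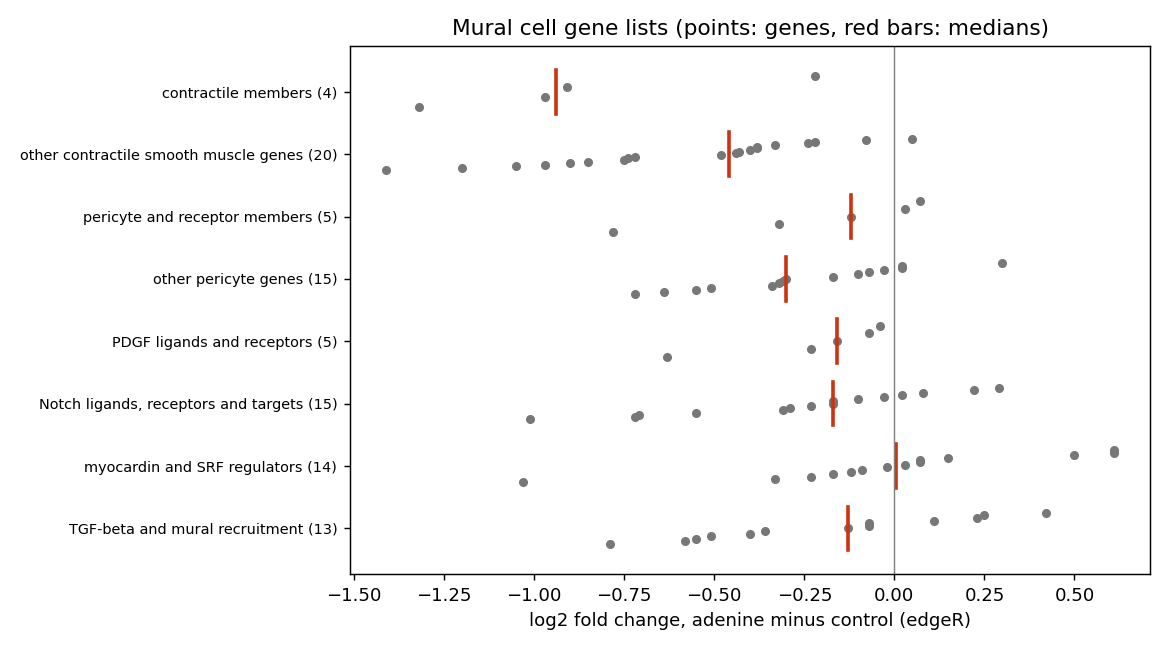
Log2 fold changes (horizontal axis, adenine minus control, edgeR) of all tested genes in 8 mural cell lists, with the number of genes in brackets and the list medians as red bars. The contractile lists have medians of -0.94 and -0.46, the pericyte lists -0.12 and -0.30, and the regulators of SRF and myocardin lie around 0.

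The upstream regulators of the contractile genes, measured over all cells of the tissue, lay on both sides of 0. The part of smooth muscle in their levels was not tested. Of 14 tested genes of the myocardin and SRF list 7 were positive and 7 negative, with a median of 0, and none passed. Myocd, which encodes myocardin, had 20.1 ± 1.97 CPM in the controls and 19.9 ± 5.05 CPM in the adenine hearts, named after its values were seen. Klf4, a factor known to repress contractile genes in smooth muscle and also expressed in endothelium and macrophages, had 44.1, 42.3, 47.4 and 45 CPM in the controls. It had 78.4, 57.5, 63.3 and 72.9 CPM in the adenine libraries, all above the controls (log2 fold change 0.61, SE 0.14, adjusted p = 0.142). Tcf21, a fibroblast factor placed in this list, had -1.03 (adjusted p = 0.142 in edgeR and 0.020 in DESeq2).

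In the PDGF list 5 of 5 genes were negative, with a median of -0.16, and none passed. Pdgfra, the receptor of fibroblasts, had the lowest p with -0.63 (SE 0.16, adjusted p = 0.17), and Pdgfd had -0.16. In the Notch list 11 of 15 genes were negative with a median of -0.17, and none passed. Heyl, the Notch target of mural cells, had 21.8, 22.4, 23.2 and 25.3 CPM in the controls and 11.2, 13.3, 12.4 and 19.8 CPM in the adenine libraries. The diets were separated for it. Heyl had a log2 fold change of -0.71 (SE 0.18), beside 0.07 for the receptor Notch3, with an adjusted p of 0.17 in edgeR and 0.0296 in DESeq2. Nrarp, a feedback inhibitor that Notch induces, had -1.01 (SE 0.26, adjusted p = 0.175 in edgeR and 0.0222 in DESeq2) at 3.98 ± 0.693 and 1.97 ± 0.341 CPM. The log2 fold changes of other Notch targets were 0.02 for Hey1, -0.23 for Hey2 and -0.31 for Hes1. Among the ligands they were -0.55 for Dll1, with the diets separated, -0.72 for Dll4, -0.17 for Jag1 and -0.10 for Jag2. These targets and ligands were named after their values were seen.

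Genes of mural recruitment and TGF-beta signalling had 9 of 13 negative values with a median of -0.13, and none passed. Angpt2, the endothelial antagonist of the receptor TEK, was at 8.67 ± 1.19 and 6.08 ± 0.667 CPM, with no overlap and a log2 fold change of -0.51 (SE 0.18, adjusted p = 0.245), and Tek had -0.58 (SE 0.13, adjusted p = 0.129 in edgeR and 0.0289 in DESeq2). Among 12 genes of the great vessels and outflow tract 10 were negative, with a median of -0.42 and none passed. Cytl1, a small secreted protein, had 22.1, 58.8, 16.3 and 25.4 CPM in the controls and 8.08, 8.13, 5.19 and 13.7 CPM in the adenine libraries, without overlap. Its log2 fold change was -1.81 (SE 0.38), with an adjusted p of 0.117 in edgeR and 0.000246 in DESeq2, and control 2 was highest, as for Acta2. Eln, which encodes the elastin of arterial walls, had -0.49 (adjusted p = 0.28), named after its values were seen.

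Markers of the cells that surround the mural cells are given beside these lists. Endothelial markers had a median log2 fold change of -0.37 (8 of 10 negative), and summed to 1360 to 1940 CPM in the controls and 1210 to 1830 CPM in the adenine libraries. Fibroblast markers had a median of -0.66 (6 of 10 negative, summed 2160 to 3190 and 1160 to 3800 CPM). Mesothelial markers summed to 12.4 to 40.4 and 15.9 to 29.5 CPM. Erythroid markers had the lowest median of the marker lists, -2.25. Here 4 of 4 tested genes were negative and separated between the diets, against 3.84% of all genes in the lower direction. The erythroid markers summed to 7010 to 26000 CPM in the controls and 1660 to 3080 CPM in the adenine libraries. Their lowest adjusted p was 0.0744 (edgeR), for Hba-a1 and Hba-a2, near-identical globin genes between which reads can be split. Both globin genes were named after their values were seen. None of these markers passed the test. Their part in the levels of the mural genes was not tested.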

How the data were processed

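Heart RNA was sequenced in bulk in 4 control and 4 adenine libraries, grouped by sample title. Per the labels' protocols, RNA was extracted with peqGOLD TriFast and the libraries come from the NEBNext Ultra preparation. Reads were checked with FastQC 0.11.9 and the aligner named is STAR 2.7.6a, on build GRCm38.p6, per the submitters' processing notes. The authors deposited raw read counts per gene, unscaled whole numbers. How reads were counted, on which annotation and with which strand setting, is not given in the sources used. Identifiers were matched to GENCODE M21 (27275 of 27304) for coordinates, exon lengths and overlaps, and the promoters come from RefSeq.

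Counts of all 27304 genes, of which 991 had no read, entered edgeR 4.0.16 in R 4.3.3 (default filter by group, TMM, quasi-likelihood F-test of the diet, Benjamini-Hochberg over 20093 genes, threshold 0.05). Standard errors were derived from the F statistic. CPM are TMM-scaled and given as mean ± SD. Log2 CPM for correlations used a prior count of 2. Intervals and p-values of single genes cover the spread between libraries, and genes near 1 CPM also carry counting error. The fit was tested on simulated data, and the motif search on short sequences with known answers. Ratios were tested by exact permutation.

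The members and lists were chosen with earlier results of these data known. The rule named the 9 members and, per mural list, up to 4 passing genes or otherwise the 2 with the lowest p at a mean of at least 1 CPM, and the 5 genes most like Myh11 and Rgs5. Genes outside it are marked in the text. Alternatives were other scaling, filters and tests (DESeq2 1.42.0, limma-voom in limma 3.58.1), leaving out 1 library at a time, a block for the replicate number, and 1 surrogate variable (sva 3.50.0).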

Additional observations from a re-analysis of the deposited data

Results flagged for a closer look

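In 108 groups of 4 libraries (members, named genes, shares, ratios and marker sums), 7 had 1 library whose gap to its nearest neighbour took more of the range of its group than Dixon's 95% critical value allows. Chance gives this in about 1 in 20 groups. None of the 7 was a level, share or ratio of the 9 members. Atrial cardiomyocyte markers summed to 5170 CPM in control 2 and to 953 to 1130 CPM in the other controls. In adenine 3, myofibroblast markers summed to 2380 CPM, against a highest value of 332 CPM in the other adenine hearts, and macrophage markers to 2640 CPM, against 462 CPM. Control 1 had the highest sum of macrophage markers among the controls, 654 CPM with 414 CPM next, and of erythroid markers, 26000 CPM with 8060 CPM next. Sost, the WNT inhibitor of the great vessel list, was at 7.39 CPM in control 2 with 0.774 to 1.57 CPM in the other controls, and at 1.41 CPM in adenine 2 with at least 0.673 CPM in the other adenine hearts, all below it. The part of these libraries in the levels of the mural genes was not tested beyond the fits that leave them out.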

How the results depend on the processing

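The number of members that passed was 0 of 9 under every alternative run, including DESeq2 and limma-voom. Acta2, Myh11, Cnn1, Vtn and Rgs5 kept a negative log2 fold change under all 18 alternatives, with ranges of -1.32 to -0.32, -1.55 to -0.50, -1.61 to -0.14, -1.16 to -0.58 and -0.52 to -0.18 and adjusted p-values of at least 0.0534. With 1 surrogate variable, Acta2 had -0.32 and Cnn1 -0.14. The cause was not tested. Upper-quartile factors moved the median of all genes from 0.05 to 0.20. Members near 0 changed sign. Leaving out 1 library at a time gave -0.56 to 0.02 for Tagln, -0.03 to 0.09 for Cspg4 and -0.07 to 0.17 for Notch3. Tagln had 0.02 without control 2 and 0.19 with 1 surrogate variable, and Pdgfrb had 0.01 with upper-quartile factors. Cspg4 had -0.03 with DESeq2, -0.03 without control 2, -0.02 without adenine 3 and -0.11 without both, and Notch3 had -0.07 without control 2, -0.04 without adenine 1 and -0.09 with 1 surrogate variable. Kcnma1 had -0.01 with 1 surrogate variable.

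Over all genes, 8 passed higher and 0 lower. The counts were 18 and 1 with upper-quartile factors, 120 and 152 with DESeq2, 5 and 0 with limma-voom, 8 and 1 without a filter, 40 and 6 with 1 surrogate variable and 86 and 164 without control 2 and adenine 3, the last chosen after seeing the data. In that last fit Cytl1, Nrarp and Tcf21 passed (edgeR adjusted p = 0.0111, 0.0443 and 0.0475) and no member did. Leaving out 1 library gave 1 to 37 higher and 0 to 30 lower, with 37 and 30 without adenine 3. The replicate numbers are not stated to pair libraries, and deviations of same-numbered libraries correlated at 0.086, -0.50, -0.16 and 0.30. With the replicate block 16 genes passed higher and 16 lower, none of them a member, and of the named genes only Cytl1 passed (adjusted p = 0.0383). The share of reads taken by the members differed by -0.0247 percentage points, and by -0.00826 for the 5 pericyte and receptor members alone, which hold fewer genes. It was -0.0322 to -0.0199 without any 1 library.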

Other observations

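Genes that set the tone of smooth muscle were listed apart. Their values are of bulk heart, and the part of smooth muscle in them was not tested. Of 14 calcium and contraction genes, 11 had a negative log2 fold change, the median was -0.25 and none passed in edgeR. By unadjusted p (under 0.05) 1 was lower and 1 higher, where 6.63% of all genes were lower and 10.9% higher. Kcnma1, the large-conductance potassium channel that relaxes smooth muscle, had 4.05 ± 1.11 CPM in the controls and 7.61 ± 4.62 CPM in the adenine hearts (SD, n = 4), a log2 fold change of 0.90 (SE 0.37, adjusted p = 0.271). Adenine 2 was highest at 13.7 CPM, and without it the log2 fold change was 0.46 (edgeR adjusted p = 0.622). Itpr1, the calcium release channel of the endoplasmic reticulum, had -0.31 (SE 0.13, adjusted p = 0.274).

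Relatives of Rgs5 were measured too. Of 6 other RGS genes 3 were negative and 3 positive, and none passed. Rgs3 had 50.2 ± 4.77 and 40.4 ± 1.84 CPM, with no overlap between the diets and a log2 fold change of -0.31 (SE 0.13, adjusted p = 0.271), close in size to Rgs5 with -0.32. Rgs4, known in pericytes and cardiomyocytes, had 22.0 ± 3.53 and 16.0 ± 4.4 CPM and a log2 fold change of -0.45 (SE 0.19, adjusted p = 0.274). Sost, a WNT inhibitor listed with the great vessel genes, had 2.66 ± 3.17 and 0.865 ± 0.361 CPM and a log2 fold change of -1.65 (SE 0.66, adjusted p = 0.267). It rested on control 2, since it was -0.37 (edgeR adjusted p = 0.747) without that library.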
